A study of Mus musculus with 8 samples.

Results

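The genes described here are 10 members of the circadian clock circuit, chosen by symbol: Arntl, Per1, Per2, Per3, Cry1, Nr1d1, Nr1d2, Dbp, Tef and Hlf. All 10 were found among the 18691 genes of the files, and all 10 passed the filter on low counts. They were measured by sequencing of polyadenylated RNA in white adipose tissue, taken from the epididymal fat of C57BL/6J mice aged 16 weeks. Of the 8 libraries, 4 were labelled wild type (WT, replicates 1, 2, 3 and 4) and 4 were labelled Mrp4-/- (replicates 1, 2, 4 and 5), a knockout of the efflux transporter Mrp4, which exports cyclic AMP and prostaglandins. The labels name no treatment and give no structure of the altered allele, and the hour of tissue collection, which matters for clock genes, was not given in the sources used here.

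The mammalian clock is a loop of transcription factors that runs in nearly every cell, adipocytes included. ARNTL (also called BMAL1), paired with CLOCK or NPAS2, switches on the Per and Cry genes, the nuclear receptor genes Nr1d1 and Nr1d2 (REV-ERBα and REV-ERBβ) and the PAR bZIP factor genes Dbp, Tef and Hlf. PER and CRY proteins then block ARNTL, and the REV-ERB proteins repress Arntl itself, so that over a day Arntl RNA runs opposite to Dbp and the REV-ERB genes, with the Per genes following. In fat the loop sets daily rhythms of lipid storage, lipolysis and adipokine release.

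Promoter sequences of 4 of the genes are shown here: Nr1d1 and Hlf because they changed, and Arntl and Per3 because their windows hold more than 1 match to the element of the REV-ERB and ROR receptors or to the D-box. The windows run from 250 bases before to 50 bases after a transcription start in RefSeq (build GRCm38.p6), 5′ to 3′ on the gene's strand, and capitals mark motif matches. They are Nr1d1 at chr11:98775328-98775627 on the minus strand, Hlf at chr11:90390868-90391167 on the minus strand, the second of 2 Arntl windows at chr7:113207261-113207560 on the plus strand, and Per3 at chr4:151044616-151044915 on the minus strand.
Nr1d1: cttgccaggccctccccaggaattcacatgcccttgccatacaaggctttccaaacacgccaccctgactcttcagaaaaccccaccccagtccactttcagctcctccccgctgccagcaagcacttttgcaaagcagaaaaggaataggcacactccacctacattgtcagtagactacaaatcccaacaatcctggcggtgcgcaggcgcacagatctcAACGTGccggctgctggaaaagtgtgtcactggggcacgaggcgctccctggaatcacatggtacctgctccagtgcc
Hlf: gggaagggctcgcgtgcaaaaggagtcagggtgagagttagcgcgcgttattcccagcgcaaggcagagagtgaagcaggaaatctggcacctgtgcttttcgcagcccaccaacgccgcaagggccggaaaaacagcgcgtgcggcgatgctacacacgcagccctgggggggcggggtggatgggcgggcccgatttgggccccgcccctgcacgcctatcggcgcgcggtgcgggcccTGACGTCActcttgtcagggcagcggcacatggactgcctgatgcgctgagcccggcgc
Arntl: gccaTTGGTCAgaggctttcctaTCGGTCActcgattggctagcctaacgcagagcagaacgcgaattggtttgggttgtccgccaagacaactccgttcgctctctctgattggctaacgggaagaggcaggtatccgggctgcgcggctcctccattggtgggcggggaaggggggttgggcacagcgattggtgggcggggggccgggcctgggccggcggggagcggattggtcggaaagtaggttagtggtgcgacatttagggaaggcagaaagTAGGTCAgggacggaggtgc
Per3: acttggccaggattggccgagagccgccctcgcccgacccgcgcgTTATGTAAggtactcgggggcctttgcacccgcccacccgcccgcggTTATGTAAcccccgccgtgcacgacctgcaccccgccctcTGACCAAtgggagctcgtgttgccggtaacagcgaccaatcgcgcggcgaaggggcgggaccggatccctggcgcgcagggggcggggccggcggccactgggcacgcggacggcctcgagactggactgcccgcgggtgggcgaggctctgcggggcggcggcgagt

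The motifs searched, on both strands, were the E-box CACGTG and the variant E-box CACGTT bound by ARNTL with its partner, the D-box TTANGTAA bound by PAR bZIP factors, TNGGTCA as the core of the element shared by REV-ERB and ROR receptors, and the cyclic AMP response element TGACGTCA. Windows were found for 9 of the 10 genes, 12 windows in all, and none of the matches overlapped another. In the Nr1d1 window the only match was a variant E-box beginning 28 bases before the start, a motif held by 4.68% of all 32851 windows of this length. The only match in the Hlf window was a cyclic AMP response element beginning 9 bases before the start, held by 1.79% of all windows. The Arntl window held 3 matches to the REV-ERB and ROR core (11% of all windows), of which the one beginning at base 31 after the start lies in the transcribed part. The Per3 window held 2 D-boxes (2.32% of all windows) and 1 match to the REV-ERB and ROR core. Among the other genes, the first of 2 Per1 windows, the Cry1 window and both Tef windows held an E-box (7.15% of all windows). The second Per1 window and the Dbp and Nr1d2 windows held none of the 5 motifs. A match describes these letters in this window only.

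Facts that bear on every comparison are given once. The libraries held 14064681 to 14700114 expected counts each. Abcc4, which encodes Mrp4, was at 3.52 ± 0.232 FPKM (fragments scaled by transcript length and library size) in WT and at a mean of 3.6 ± 0.244 FPKM in those labelled Mrp4-/- (SD, n = 4, exact two-sided permutation p = 0.571), so its transcript did not check the labels, and every direction below rests on them. Adipocyte markers were high throughout, with summed levels that overlap (17769 to 22347 FPKM in WT and 19458 to 25316 FPKM in the others), but 3 of 8 passed the test. The leptin gene Lep rose from 247 ± 175 to 881 ± 197 FPKM (adjusted p = 0.0191), while the resistin gene Retn fell from 2028 ± 330 to 1136 ± 196 FPKM (adjusted p = 0.00737) and the lipid droplet gene Plin1 from 752 ± 25.5 to 619 ± 19 FPKM (adjusted p = 0.0217). Adipoq, the adiponectin gene, was at 2614 ± 181 and 2457 ± 133 FPKM (adjusted p = 0.325). Liver transcripts stood apart between the groups: all 10 hepatocyte markers passed the test and were higher in the libraries labelled Mrp4-/-, with a summed level of 38.1 to 96.3 FPKM in WT and 688 to 1376 FPKM in the others; Cyp2c29 was listed at 0 in WT replicate 2. Endothelial markers (4 of 5 higher, summed level 189.9 to 283 FPKM against 331 to 343 FPKM) and macrophage markers (3 of 8 higher, 677 to 784 against 792 to 1285 FPKM) also differed. Of the mesothelial markers, 1 of 5 was lower (summed level of the 5, 139 to 219 against 49.5 to 138 FPKM). Of 5 tested T lymphocyte markers 0 passed with edgeR (2 at an unadjusted p under 0.05, 1 with DESeq2, 0 with limma-voom). Yet the summed level of all 6 listed was 5.72 to 8.25 against 9.86 to 15.9 FPKM. Of 3 tested brown adipocyte markers 1 was lower (summed level of all 4 listed, 3.51 to 11 against 1.92 to 6.84 FPKM). Of the 7 epididymis and testis markers 5 were listed and none was tested, and Crisp1 alone reached 13.5 FPKM, in WT replicate 2. In bulk tissue, fewer cells of a type and less RNA per cell cannot be told apart.

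Of the 10 clock genes, Nr1d1 fell and Hlf rose in the libraries labelled Mrp4-/-, and the other 8 did not pass the test. Nr1d1, the more abundant of the REV-ERB genes, had a level of 0.501 times that in WT. Hlf, the least abundant PAR bZIP gene, was higher by 1.62-fold. The count of 1 gene higher and 1 lower is to be read beside the background: 18.3% of all 14257 tested genes were called at an adjusted p under 0.05 (10.2% higher and 8.05% lower), so 2 of 10 is near the background share. The median log2 fold change was 0.12 over the 10 genes and 0.00 over all tested genes. Folds and p-values come from the quasi-likelihood test of edgeR, and adjusted p-values from the Benjamini-Hochberg method over all tested genes.

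**Figure D1:**
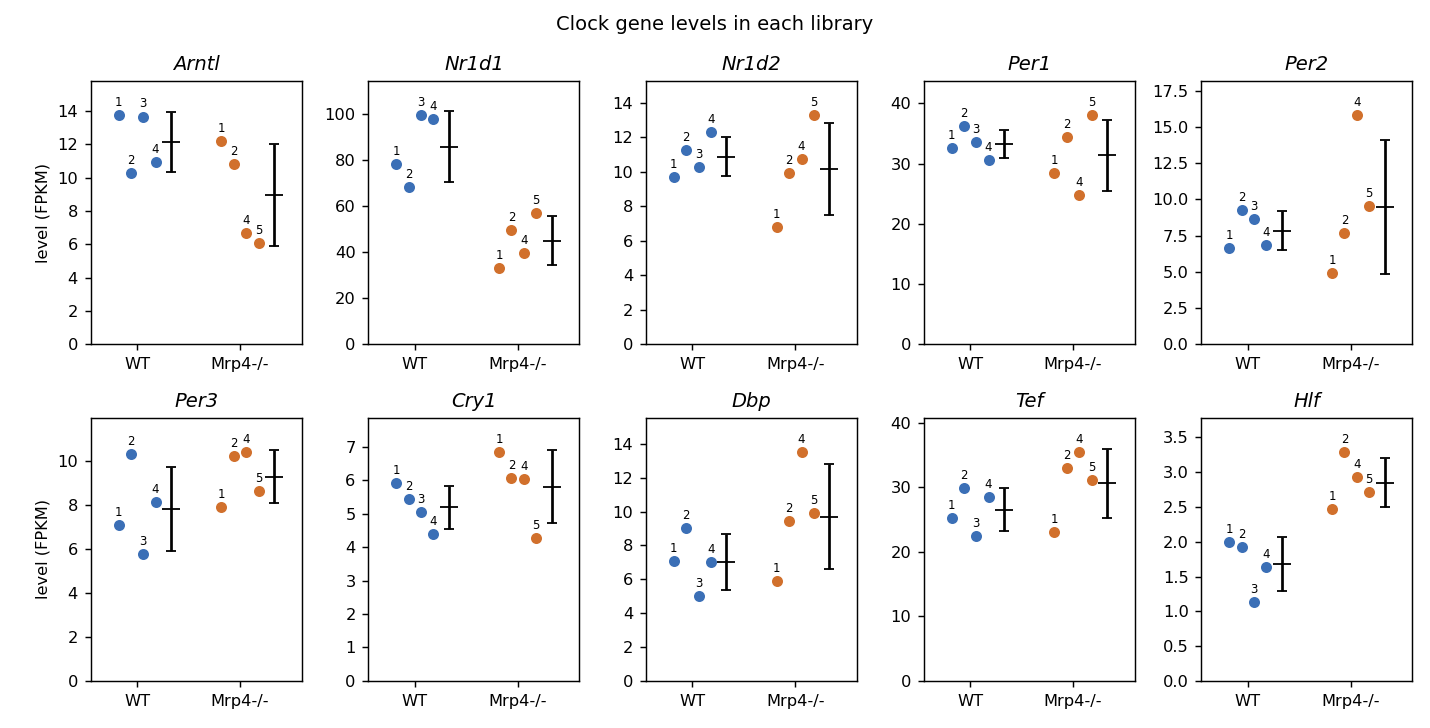
Level in FPKM (vertical axes, from 0) of each clock gene in the 4 WT libraries (blue) and the 4 libraries labelled Mrp4-/- (orange). Numbers beside the points are replicate numbers, and the bars to the right are the mean ± SD of a group; Nr1d1 and Hlf are the genes whose groups do not overlap.

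Arntl, the positive limb of the loop and a target of REV-ERB repression, was at 13.7, 10.2, 13.7 and 10.9 FPKM in WT replicates 1 to 4, and at 12.2, 10.8, 6.65 and 6.09 FPKM in replicates 1, 2, 4 and 5 labelled Mrp4-/-. Replicates 4 and 5 of the latter group were the lowest of all libraries, while replicates 1 and 2 lay inside the WT range, so the groups overlap. On the log2 scale Arntl differed by -0.51 ± 0.22 (SE), and the fold had a 95% interval, not adjusted for the number of genes, of 0.501 to 0.98 (adjusted p = 0.122). It did not pass with any single library left out (-0.69 to -0.37).

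Nr1d1 was at 78, 68, 99.2 and 97.7 FPKM in WT and at 33, 49.7, 39.7 and 57 FPKM in replicates 1, 2, 4 and 5 labelled Mrp4-/-. Every library labelled Mrp4-/- lay below every WT library; groups that do not overlap, in either direction, were seen in 23.5% of all tested genes. The change was -0.998 ± 0.19 on the log2 scale (adjusted p = 0.0106), from 85.7 ± 15.3 to 44.9 ± 10.6 FPKM (SD, n = 4), and it passed in all 8 fits that left out a library (-1.14 to -0.87). The counts behind it were 2525 to 3736 in WT and 1238 to 2074 in the libraries labelled Mrp4-/-. In the GENCODE annotation Nr1d1 overlaps Thra, the thyroid hormone receptor α gene on the opposite strand, by 1075 bases, and no use of strand is stated for the counts. Thra itself was at 42 ± 1.04 and 38.9 ± 6.03 FPKM (-0.17 ± 0.10 on the log2 scale, adjusted p = 0.234), and the part of shared reads in the Nr1d1 result was not tested. Summed mesothelial markers were also lower in every library labelled Mrp4-/- than in any WT library, though only just (138.31 against 138.63 FPKM at the nearest). Summed endothelial, macrophage, T lymphocyte and liver markers were higher in every such library. The macrophage sum was mostly Lyz2 (469 to 550 FPKM in WT), whose own groups overlap. The part of these cell types in the Nr1d1 result was not tested. With the 10 hepatocyte markers left out of the fit, Nr1d1 was at -0.99 (adjusted p = 0.0107). Leaving them out does not change the Nr1d1 counts, so this fit says nothing on the part of liver RNA.

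Nr1d2, the paralogue of Nr1d1, did not pass. It was at 9.68, 11.3, 10.3 and 12.3 FPKM in WT and at 6.8, 9.92, 10.7 and 13.3 FPKM in the libraries labelled Mrp4-/-, where replicate 1 was the lowest and replicate 5 the highest of all 8. The log2 fold change was -0.16 ± 0.18 (adjusted p = 0.566), and the 95% interval of the fold ran from 0.675 to 1.19. Within a library, where scaling cancels, the log2 ratio of Nr1d1 to Nr1d2 was 2.59 to 3.27 in WT. It was 1.89 to 2.33 in the libraries labelled Mrp4-/-, without overlap. Nr1d1 alone also separates the groups, so the ratio is no independent result. The difference between the paralogues was not tested.

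The Per genes, whose proteins hold back ARNTL, did not pass in either direction. Per1, which also responds quickly to cyclic AMP and to glucocorticoids, was at 32.6, 36.2, 33.5 and 30.6 FPKM in WT and at 28.4, 34.4, 24.8 and 38 FPKM in the libraries labelled Mrp4-/-. Both the lowest and the highest level belonged to the latter group, in replicates 4 and 5. Per2 was at 6.62, 9.27, 8.67 and 6.83 FPKM in WT and at 4.92, 7.66, 15.8 and 9.55 FPKM in the libraries labelled Mrp4-/-. Replicate 4 labelled Mrp4-/- was the highest and replicate 1 the lowest, so the WT libraries lay between libraries of the other group. The log2 fold change of Per2 was 0.21 ± 0.30 (adjusted p = 0.648), and it turned to -0.15 without replicate 4 labelled Mrp4-/-. Per3 was at 7.09, 10.3, 5.75 and 8.13 FPKM in WT and at 7.91, 10.2, 10.4 and 8.61 FPKM in the libraries labelled Mrp4-/-, with overlapping groups. Per3 overlaps Camta1 on the same strand, which was at 1.91 ± 0.3 and 2.22 ± 0.386 FPKM. The 95% intervals of the fold were 0.745 to 1.1 for Per1, 0.726 to 1.85 for Per2 and 0.877 to 1.47 for Per3.

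Cry1, the repressor that acts with the PER proteins, was at 5.91, 5.44, 5.04 and 4.39 FPKM in WT and at 6.84, 6.07, 6.04 and 4.27 FPKM in the libraries labelled Mrp4-/-. Replicate 5 labelled Mrp4-/- was the lowest of all libraries and the other 3 of its group were the highest. The 95% interval of the fold was 0.858 to 1.33 (adjusted p = 0.668).

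Among the PAR bZIP genes, outputs of the clock that bind D-boxes, Hlf passed and Dbp and Tef did not. Hlf was at 2, 1.92, 1.14 and 1.64 FPKM in WT and at 2.47, 3.29, 2.93 and 2.71 FPKM in replicates 1, 2, 4 and 5 labelled Mrp4-/-, without overlap. It rose by 0.70 ± 0.17 on the log2 scale (adjusted p = 0.0243), on 94 to 164 counts in WT and 202 to 271 in the other group. The call was lost without WT replicate 4 (0.69, adjusted p = 0.0628), without replicate 2 labelled Mrp4-/- (0.63, adjusted p = 0.0575) and without replicate 4 labelled Mrp4-/- (0.69, adjusted p = 0.0585), and held without each of the other 5 libraries. Liver transcripts moved in the same direction as Hlf. Alb, which encodes serum albumin, was at 40, 23.1, 23.5 and 17.4 FPKM in WT. It was at 310, 553, 509 and 496 FPKM in replicates 1, 2, 4 and 5 labelled Mrp4-/-. Alb had the order of Hlf among those 4 libraries but not in WT. In the libraries labelled Mrp4-/-, Apoa2, Fabp1 and Ttr also had that order. The other liver markers, Apoa1, Fgb, Serpina1c, Tat, Cyp2c29 and Mup20, did not. With the liver transcripts left out of the fit Hlf was at 0.70 (adjusted p = 0.0238), a fit that does not take away Hlf reads from liver RNA, whose part in the result was not tested.

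Dbp was at 7.06, 9.02, 5.01 and 7 FPKM in WT and at 5.92, 9.42, 13.5 and 9.93 FPKM in the libraries labelled Mrp4-/-. The highest level was in replicate 4 labelled Mrp4-/-, yet replicate 1 of that group lay below 3 of the WT libraries. The log2 fold change was 0.41 ± 0.25 (adjusted p = 0.273), and the 95% interval of the fold ran from 0.9 to 1.95. Dbp overlaps Sphk2 on the opposite strand by 737 bases, and Sphk2 was at 13.7 ± 0.616 and 13.9 ± 1.11 FPKM. Tef was at 25.3, 29.9, 22.5 and 28.6 FPKM in WT and at 23.1, 33, 35.5 and 31.1 FPKM in the libraries labelled Mrp4-/- (log2 fold change 0.14 ± 0.14, adjusted p = 0.505). The log2 ratio of Hlf to Tef within a library was -4.30 to -3.66 in WT and -3.60 to -3.22 in the libraries labelled Mrp4-/-. Hlf alone also separates the groups, so this ratio is no independent result. That of Hlf to Dbp overlapped between the groups.

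**Figure D2:**
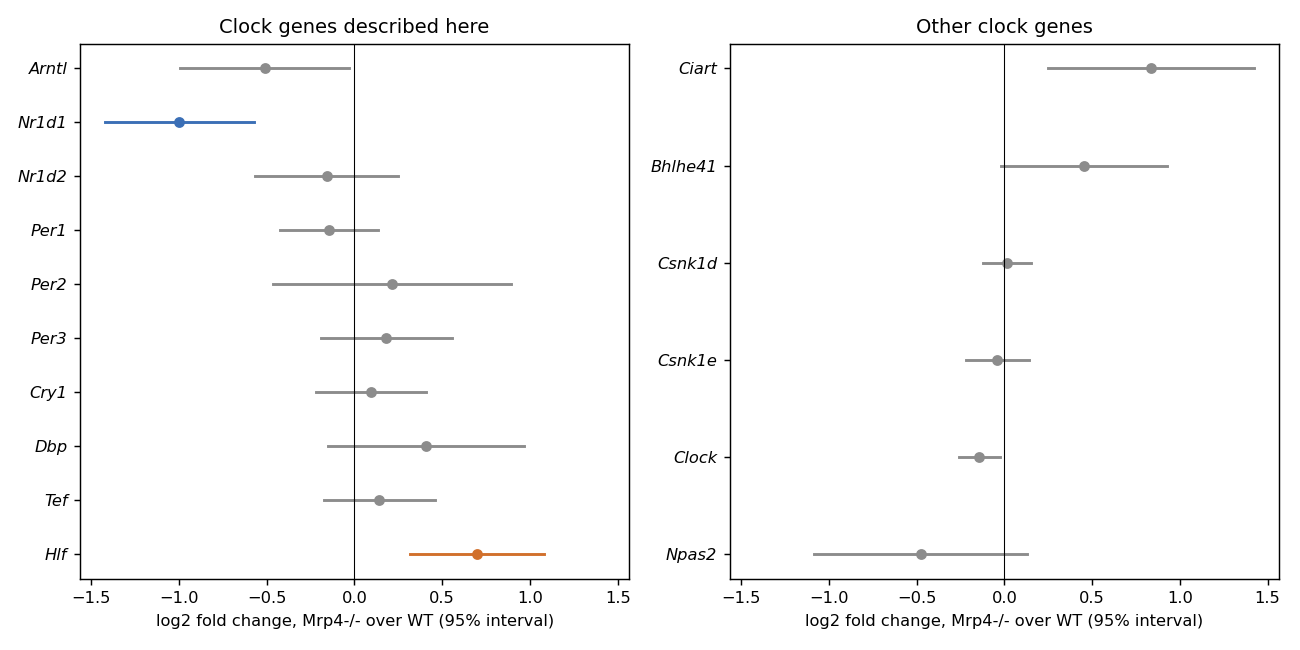
Log2 fold change with its 95% interval (horizontal axis) for the 10 clock genes (left) and for the 6 genes named here from the list of other clock genes (right), as libraries labelled Mrp4-/- over WT. Nr1d1 (blue, lower) and Hlf (orange, higher) passed at an adjusted p under 0.05, and genes in grey did not.

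Per kilobase of transcript, Nr1d1 was the most abundant of the 10 genes, with a mean over the 8 libraries of 65.3 FPKM, above Per1 in all 8. Per1 (32.3 FPKM) and Tef (28.6 FPKM) followed, with overlapping ranges, and Tef was above Arntl in every library. Arntl (10.5 FPKM), Nr1d2 (10.5), Per2 (8.67), Per3 (8.54) and Dbp (8.36) had mean levels close together, and the ranges of neighbours in this order overlapped. Cry1 (5.5 FPKM) was above Hlf (2.26 FPKM) in all 8 libraries.

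Clock genes varied more between libraries of the same label than most genes did. Over the 12510 tested genes whose mean reached 1 FPKM, the median within-group SD of log2(FPKM + 1) was 0.133, and all 10 clock genes were above it. Per2 (0.469), Dbp (0.378), Arntl (0.347) and Nr1d1 (0.303) were above the 90th percentile, and Hlf was the lowest of the 10 (0.181, percentile 70.4). The spread was larger in the libraries labelled Mrp4-/- than in WT for 8 of the 10 genes, where 42.5% of all genes had the larger spread there. Per2 had an SD of 0.627 in the libraries labelled Mrp4-/- and of 0.216 in WT. These SDs include counting error and were not matched for level.

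Libraries of the group labelled Mrp4-/- differed from each other in the pattern of these genes. Replicate 4 had the highest level of Per2, Per3, Dbp and Tef of all 8 libraries and the lowest of Per1. Replicate 1 had the lowest Nr1d1, Nr1d2 and Per2 and the highest Cry1. Replicate 5 had the lowest Arntl and Cry1 and the highest Per1 and Nr1d2. In WT, replicate 3 had the lowest Per3, Dbp, Tef and Hlf and the highest Nr1d1. The log2 ratio of Arntl to Dbp, known to run opposite over a day, was 0.96, 0.18, 1.45 and 0.64 in WT and 1.04, 0.20, -1.02 and -0.71 in replicates 1, 2, 4 and 5 labelled Mrp4-/-. Replicates 4 and 5 were thus the only libraries with more Dbp than Arntl per kilobase, and replicates 1 and 2 lay within the WT range.

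**Figure D3:**
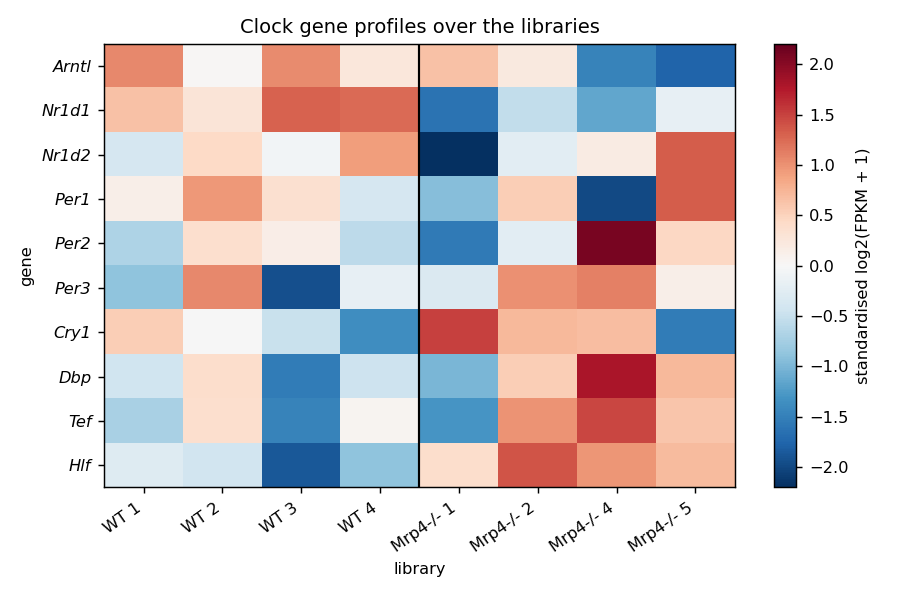
Heat map of log2(FPKM + 1), standardised for each clock gene (rows) over the 8 libraries (columns), with WT left of the line. Red is above and blue below the gene's mean; the Dbp and Tef rows run alike, and replicates 4 and 5 labelled Mrp4-/- have the lowest Arntl.

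Relations between genes were computed over the 8 libraries for the 8 clock genes whose groups overlap, which made 28 pairs; Nr1d1 and Hlf were left out because their groups separate. The points share libraries and depth, and each group of 4 is too small for a correlation of its own. The permutations mixed the groups, so group differences that fall short of separation can add to r and to its p-value. Dbp and Tef moved together (Pearson's r = 0.952, exact permutation p = 0.000198, adjusted p = 0.00556; Spearman's rho = 0.952, exact p = 0.00114, adjusted p = 0.0319). Without the 2 libraries farthest from the median of Dbp, r was 0.917. Cry1 and Nr1d2 ran opposite (r = -0.86, exact permutation p = 0.00221, adjusted p = 0.0309; rho = -0.83, exact p = 0.0154, adjusted p = 0.0861), with r = -0.76 without the 2 libraries farthest from the median of Cry1. No other pair passed the adjustment. Arntl and Dbp had r = -0.83 (exact permutation p = 0.00866, adjusted p = 0.0536; rho = -0.81, exact p = 0.0218, adjusted p = 0.0871), and r = -0.76 without replicates 4 and 5 labelled Mrp4-/-. Per2 and Dbp had r = 0.749 (exact permutation p = 0.0322, adjusted p = 0.129; rho = 0.69, exact p = 0.0694, adjusted p = 0.194), which dropped to 0.292 without replicates 1 and 4 labelled Mrp4-/- and thus rests on them.

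**Figure D4:**
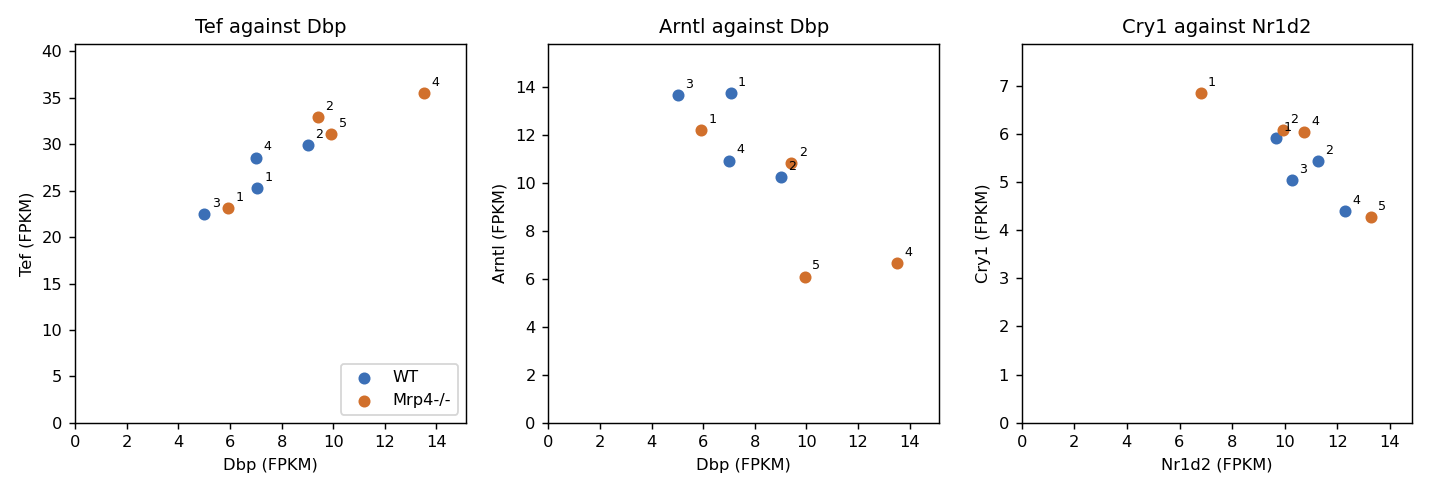
Levels in FPKM of Tef against Dbp, Arntl against Dbp and Cry1 against Nr1d2, 1 point per library (WT blue, libraries labelled Mrp4-/- orange, numbers are replicates). Tef rises with Dbp over both groups (r = 0.952), Arntl against Dbp has r = -0.83, which did not pass the adjustment (adjusted p = 0.0536 by exact permutation), with replicates 4 and 5 labelled Mrp4-/- lowest in Arntl, and Cry1 runs opposite to Nr1d2 (r = -0.86).

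Likeness of profiles was measured as the root mean square difference of standardised log2(FPKM + 1) over the 8 libraries, among 12510 genes, where 0 means the same shape. Tef was the nearest of all genes to Dbp (0.31), and Esf1 (0.425), Tmem57 (0.445), Map4k3 (0.466) and Zdhhc14 (0.473) were among the next nearest, with Per3 at position 26 and Per2 at position 123. Nearest to Arntl were Pdcd7 (0.145), Pom121 (0.182), Zfp395 (0.251), Tubgcp3 (0.253) and Zbed3 (0.263), and no other clock gene of the 10 was nearer than position 3163, held by Nr1d1.

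Of 18 other clock genes, 17 were tested and 0 passed with edgeR, where 18.3% of all tested genes did. At an unadjusted p under 0.05 there were 3; DESeq2 called 2, of which Clock is described here, and limma-voom 0. The median log2 fold change of the list was 0.02. Clock, the partner of ARNTL, was at 17.6 ± 0.5 and 16.7 ± 0.285 FPKM (SD, n = 4), with groups that did not overlap but a log2 fold change of only -0.14 ± 0.05 (adjusted p = 0.0819). Bhlhe41, a repressor that competes for E-boxes, was at 1.17 ± 0.311 and 1.68 ± 0.375 FPKM (0.45 ± 0.21, adjusted p = 0.157). Npas2, the alternative partner and a further REV-ERB target, was at 3.19, 2.2, 3.77 and 2.74 FPKM in WT and at 3.58, 1.9, 1.41 and 2.08 FPKM in the libraries labelled Mrp4-/-. Its groups overlap (-0.48 ± 0.27 on the log2 scale, adjusted p = 0.235), and without replicate 1 labelled Mrp4-/- it passed (-0.79, adjusted p = 0.045). Ciart, listed as Gm129, encodes a repressor of the ARNTL complex and was at 0.438 ± 0.066 and 0.82 ± 0.144 FPKM (0.84 ± 0.26, adjusted p = 0.053), and passed when libraries were scaled by size alone (0.90, adjusted p = 0.0406). The casein kinase genes Csnk1d and Csnk1e, which set the stability of PER proteins, had log2 fold changes of 0.02 and -0.04.

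Of 12 genes known as clock-controlled outputs, 1 rose, 2 fell and 9 did not pass, a share called of 25% where all genes had 18.3%. DESeq2 called 4 of them and limma-voom 2, and 5 had an unadjusted edgeR p under 0.05. Por, which encodes the electron donor of cytochrome P450 enzymes, fell from 207 ± 14.1 to 139.7 ± 8.24 FPKM without overlap (-0.63 ± 0.08 on the log2 scale, adjusted p = 0.00173), and passed in all 8 fits without 1 library. Nampt, the rate-limiting enzyme of NAD salvage, fell from 30.8 ± 5.86 to 23.4 ± 1.84 FPKM (-0.47 ± 0.14, adjusted p = 0.0469), with overlapping groups, and kept its call in 1 of 8 such fits (-0.59 to -0.35). The Nampt call was also lost with scaling by library size alone (adjusted p = 0.0599), upper quartile factors (0.0528), limma-voom (0.0524), limma-trend on log2(FPKM + 1) (0.0756) and limma-trend on log2(FPKM + 0.1) (0.0743). Elovl3, a fatty acid elongase gene, rose from 0.38, 0, 0.26 and 0.08 FPKM to 1.43, 5.66, 4.32 and 1.4 FPKM (adjusted p = 0.00875), beside the liver transcripts in the same libraries, whose part was not tested. Alas1, the first enzyme of heme synthesis, was at 134 ± 32.3 and 97 ± 17.4 FPKM (-0.53 ± 0.19, adjusted p = 0.082 with edgeR), and was called by DESeq2. Usp2, a deubiquitinase whose RNA cycles in many tissues, was at 4.01 ± 0.554 and 3.35 ± 0.631 FPKM (adjusted p = 0.132). Tspan4 was at 38.9 ± 8.69 and 50.1 ± 11.5 FPKM (adjusted p = 0.282).

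Per1 also responds to glucocorticoids. Of 10 glucocorticoid response genes 0 passed with edgeR, where 18.3% of all tested genes did. In so short a list that share gives few calls, so the count says little about glucocorticoid action. At an unadjusted p under 0.05 there was 1, and DESeq2 and limma-voom called 0. The 10 genes had a median log2 fold change of -0.11. Mt1, a metallothionein gene, had the lowest p and was at 254 ± 33.2 and 205 ± 42.3 FPKM (-0.37 ± 0.15, adjusted p = 0.114). Zbtb16 was at 42.6 ± 13.9 and 30.7 ± 10 FPKM and Dusp1, a phosphatase gene, at 55.5 ± 17.1 and 73.6 ± 15.6 FPKM (adjusted p = 0.198 and 0.32). Fkbp5, a sensitive target of the glucocorticoid receptor, was at 16.7, 14.7, 32.8 and 57.7 FPKM in WT and at 8.8, 17.6, 20.5 and 33.7 FPKM in the libraries labelled Mrp4-/- (adjusted p = 0.388), and WT replicate 4 was the highest. Tsc22d3, which is in both lists, was at 109 ± 20.6 and 141 ± 22.7 FPKM (adjusted p = 0.169).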

How the data were processed

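Gene tables of 8 libraries were used. The submitters' processing notes name Bowtie2 and the mouse build mm9. The Bowtie2 version, the quantifier and the use of strand were not given in the sources used here. Each deposited table holds, per the file headers, an expected count and an FPKM value for every gene listed. A gene not listed in a library was taken as 0. Expected counts were rounded to whole numbers for edgeR 4.0.16 under R 4.3.3 (filterByExpr, which left 14257 genes and removed 4434, TMM, glmQLFit with robust=TRUE, two-sided glmQLFTest, genotype alone), with a threshold of 0.05 on the adjusted p. The SE is the log2 fold change divided by the square root of F. The labels give no batch and do not say that libraries came from separate mice, so every p-value rests on the spread among libraries alone, which may be technical. Reads carried no molecular identifiers. For 4 against 4 libraries no exact p can be below 0.0286.

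The members and the gene lists were chosen with earlier results of these data known. Named genes were the 10 members, Abcc4, list genes that passed and up to 4 others of lowest p in each list, markers, genes that overlap a member, and the 5 nearest profiles to Dbp and Arntl; Npas2, Fkbp5, Csnk1d and Csnk1e were chosen after their values were seen. Some genes that this rule names are not reported here. Alternatives were other scalings, filters, tools (DESeq2 1.42.0, limma 3.58.1), units and thresholds. Further fits used the replicate number as a block, left out the 10 hepatocyte markers (the liver transcripts), or left out each library. The script was tested on simulated data of 14257 genes with 200 changed. There edgeR recovered 75% of changes of 1 and 95% of changes of 2 on the log2 scale. Of its calls, 7.61% were unchanged genes. Smaller changes, such as that of Hlf, were not simulated. Promoter sequences are from RefSeq (GRCm38.p6), and overlaps of genes from GENCODE on GRCm38; the files give no coordinates.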

Additional observations from a re-analysis of the deposited data

How the results depend on the processing

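Nr1d1 stayed lower and Hlf higher under every alternative run. The count of clock genes called lower was 1 without any single library, 0 at an adjusted p under 0.01 and 0 with the replicate number as a block, where Nr1d1 had an adjusted p of 0.0658. The count called higher was 0 to 1 without 1 library, 0 at 0.01 and 0 with the replicate block, where Hlf had an adjusted p of 0.108. Same-numbered libraries had correlations of 0.01, -0.07 and -0.13 (replicates 1, 2 and 4), within the -0.16 to 0.21 of differently numbered ones. So few pairs cannot decide whether the numbers pair libraries. Only the numbers 1, 2 and 4 occur in both groups. WT replicate 3 and replicate 5 labelled Mrp4-/- each had a block to themselves and added nothing to the genotype comparison. The block fit thus compared genotypes on fewer libraries, and its lost calls say little about Nr1d1 or Hlf. With the block 141 genes were called over all instead of 2606, and 0 of the clock-controlled outputs. Over all genes, 551 were called at 0.01, 4178 at 0.1 and 1172 to 3683 without 1 library: 3683 without WT replicate 2, and 1172 (without WT replicate 4) to 1654 without each of the others. Of the other clock genes, 1 was called when scaled by library size alone, 2 by DESeq2, 1 each by limma-trend on log2(FPKM + 1) and log2(FPKM + 0.1), 3 at 0.1 and 0 to 1 without 1 library. The outputs called numbered 2 to 4 without 1 library. Per2 ran from -0.15 to 0.43 without 1 library. Abcc4 was at -0.05 and turned to 0.0182 by library size alone, 0.0284 and 0.0353 by limma-trend with a pseudocount of 1 and 0.1, and 0.0148 with the replicate block. Scaling by library size alone gave 74.1% of called genes as higher, against 1458 of 2606 in the reported fit, and moved the median of all genes by 0.07. The causes of these shifts were not tested.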

Other observations

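Of the 10 clock genes, Arntl, Per1 and Tef were counted over 2 transcripts each, and the files give a transcript length that varies with their estimated mixture. For Arntl the length was 2910 to 2915 bases in WT and 2889 to 2921 bases in the libraries labelled Mrp4-/-, and for Tef 4218 to 4234 and 4221 to 4230.3 bases. The length of Per1 was 4662 to 4663 bases. None of the 20 gene and group combinations of 4 libraries held a library beyond Dixon's critical value.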
